A study of Mus musculus with 10 samples.

Results

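Axons of olfactory sensory neurons find their targets in the olfactory bulb with the help of guidance receptors, their ligands and adhesion molecules, and 10 genes of these kinds were examined here: Nrp1, Nrp2, Plxna1, Sema3a, Sema3f, Kirrel2, Kirrel3, Robo2, Efna5 and Epha5. They were taken by name out of 19938 gene symbols on the array, and each was read by 1 probe set. The question was whether any of them differed between mice that overexpress the histone variant H2BE in olfactory neurons and wild-type mice.

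RNA of whole main olfactory epithelium (MOE) from mice aged 5 weeks was hybridised to 10 expression arrays, 4 labelled H2be-GF and 6 labelled WT. H2be-GF mice carry a transgene, brought in as a modified plasmid, in which the promoter of the olfactory marker protein gene (Omp) drives FLAG-tagged H2BE. The line came from a founder crossed to C57Bl/6, still has its own H2be gene, and has, per the study, mature neurons around zone 2 in which the transgene is silent. RNA was pooled from more animals for an H2be-GF array than for a WT one, so that pool size and genotype cannot be told apart, and the labels give neither sex nor litter. In this bulk tissue, fewer cells of a type and less RNA per cell cannot be told apart.

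Each mature olfactory neuron expresses 1 odorant receptor, and axons of neurons with the same receptor converge on the same glomeruli. Neuropilins bind secreted semaphorins and signal through plexins, and graded Nrp1 and Sema3A on axons contribute to position along the anterior-posterior axis, whereas Nrp2 and Sema3F, together with Robo2 and its Slit ligands, contribute to position along the dorsal-ventral axis. Sorting among neighbouring axons draws on the homophilic adhesion molecules Kirrel2 and Kirrel3 and on the receptor EphA5 and its ligand ephrin-A5, which are expressed in complementary sets of axons. In olfactory neurons, Kirrel2 and EphA5 are known to increase, and Kirrel3 and ephrin-A5 to decrease, with neuronal activity, and Nrp1 is raised by cyclic AMP signalling.

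No member passed the test. With limma and Benjamini-Hochberg adjustment over all 23194 probe sets tested, 0 of the 10 genes had an adjusted p under 0.05, where 0.0862% of all probe sets did, 0.0474% higher and 0.0388% lower in H2be-GF. At an unadjusted p under 0.05 there were 2 members, Nrp1 and Efna5, both higher in H2be-GF, and 0 lower, against 8.43% of all probe sets, 4.35% higher and 4.07% lower. Of the 10 genes, 8 had a positive change, with a median of 0.09 on the log2 scale, beside 52.6% positive and a median of 0.01 over all probe sets. Values here are log2 signals, which have no meaning across different probe sets, and a change is the H2be-GF mean minus the WT mean.

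The upstream sequences of Nrp1, Kirrel2 and Epha5 are shown first, because Kirrel2 had positive correlations with both of the others between arrays of the same genotype, neither of which passed adjustment. Each is the 250 bases before the start of the gene, 5′ to 3′ on the strand of the gene, from RefSeq on GRCm38.p6, with the only match to a searched motif in capitals.
Nrp1, chr8:128358823-128359072, plus strand: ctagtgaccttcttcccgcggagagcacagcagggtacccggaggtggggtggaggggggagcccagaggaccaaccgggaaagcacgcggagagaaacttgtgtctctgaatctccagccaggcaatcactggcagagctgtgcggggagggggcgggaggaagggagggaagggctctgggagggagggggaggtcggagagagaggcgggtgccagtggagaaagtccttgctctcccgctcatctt
Kirrel2, chr7:30457516-30457765, minus strand: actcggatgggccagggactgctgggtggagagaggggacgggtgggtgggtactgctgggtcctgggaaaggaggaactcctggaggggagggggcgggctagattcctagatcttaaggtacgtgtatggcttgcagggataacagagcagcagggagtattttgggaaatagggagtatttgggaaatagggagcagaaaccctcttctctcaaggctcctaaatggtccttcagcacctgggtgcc
Epha5, chr5:84417383-84417632, minus strand: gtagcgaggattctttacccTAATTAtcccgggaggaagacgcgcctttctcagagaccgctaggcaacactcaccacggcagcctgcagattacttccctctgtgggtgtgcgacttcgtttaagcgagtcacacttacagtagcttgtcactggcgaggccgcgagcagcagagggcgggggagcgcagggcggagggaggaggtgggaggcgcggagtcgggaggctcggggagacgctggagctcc

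The windows of Nrp1, Kirrel2 and Epha5 had GC contents of 64.4%, 56.4% and 62.4%, where the median over all mouse windows was 52.4%. Windows of the other members ran from 40.8% for Sema3a to 74.8% for Efna5, on both sides of that median. RefSeq windows were held for 7 members, Nrp1, Nrp2, Sema3a, Kirrel2, Robo2, Efna5 and Epha5, and those of Plxna1, Sema3f and Kirrel3 were not used here. On both strands, 4 motifs were searched: TGACGTCA, the cyclic AMP response element, TGACG, its shorter form and contained in it, CCCNNGGG, the core bound by Ebf factors, and TAATTA, a core bound by homeodomain factors. Over 32851 windows of this length these letters occurred in 1.546%, 17.77%, 11.82% and 4.84%. Among the members, TAATTA occurred in the window of Epha5, at position -230 from the gene start, and CCCNNGGG in 1 of the windows of Robo2. These matches are letters in a window and show neither binding nor its absence.

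Nrp1, the neuropilin that binds Sema3A, differed most. It read 9.67, 9.78, 9.57 and 9.43 on the H2be-GF arrays, and 9.22, 9.30 and 9.42 as the lowest, median and highest of the WT arrays. All 4 H2be-GF values lay above all 6 WT values, but the gap between the lowest H2be-GF and the highest WT array was smaller than the SD of either genotype. Nrp1 was the only member whose genotypes did not overlap, among a background of 1.29% of probe sets apart in this direction and 1.6% apart in the other. The means were 9.61 ± 0.15 (SD, n = 4) and 9.31 ± 0.08 (SD, n = 6), a log2 change of 0.30 with SE 0.08 and a 95% interval of 0.14 to 0.47, or 1.23-fold with an interval of 1.10 to 1.38. Limma gave an unadjusted p of 0.00202, rank 156 among all probe sets, and an adjusted p of 0.296. When the variance was allowed to follow the signal level and outlying variances were down-weighted, the limma adjusted p of Nrp1 was 0.0153, and Nrp1 was then the 1 member called, beside 0.492% of all probe sets. Over the 21 alternatives tried, the limma adjusted p ran from 0.0153 to 0.9996, and the change without each array in turn from 0.25 to 0.36.

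Nrp2, the neuropilin that binds Sema3F, showed a smaller difference. It read 10.49, 10.43, 10.53 and 10.55 on the H2be-GF arrays, against 10.31, 10.38 and 10.50 as the lowest, median and highest WT values. The H2be-GF arrays all lay above the WT mean and overlapped the upper WT arrays. The log2 change was 0.10 with an interval of -0.03 to 0.24 and a limma adjusted p of 0.689. Plxna1, a plexin through which neuropilins signal, read 10.10, 9.91, 9.87 and 10.004 on H2be-GF arrays and 9.75, 9.89 and 9.99 at the lowest, median and highest WT arrays. The Plxna1 ranges overlapped over most of their length, and the change of 0.08, or 0.038 without H2be-GF replicate 1 and 0.054 without WT replicate 2, had an interval of -0.08 to 0.24 and a limma adjusted p of 0.796.

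**Figure D1:**
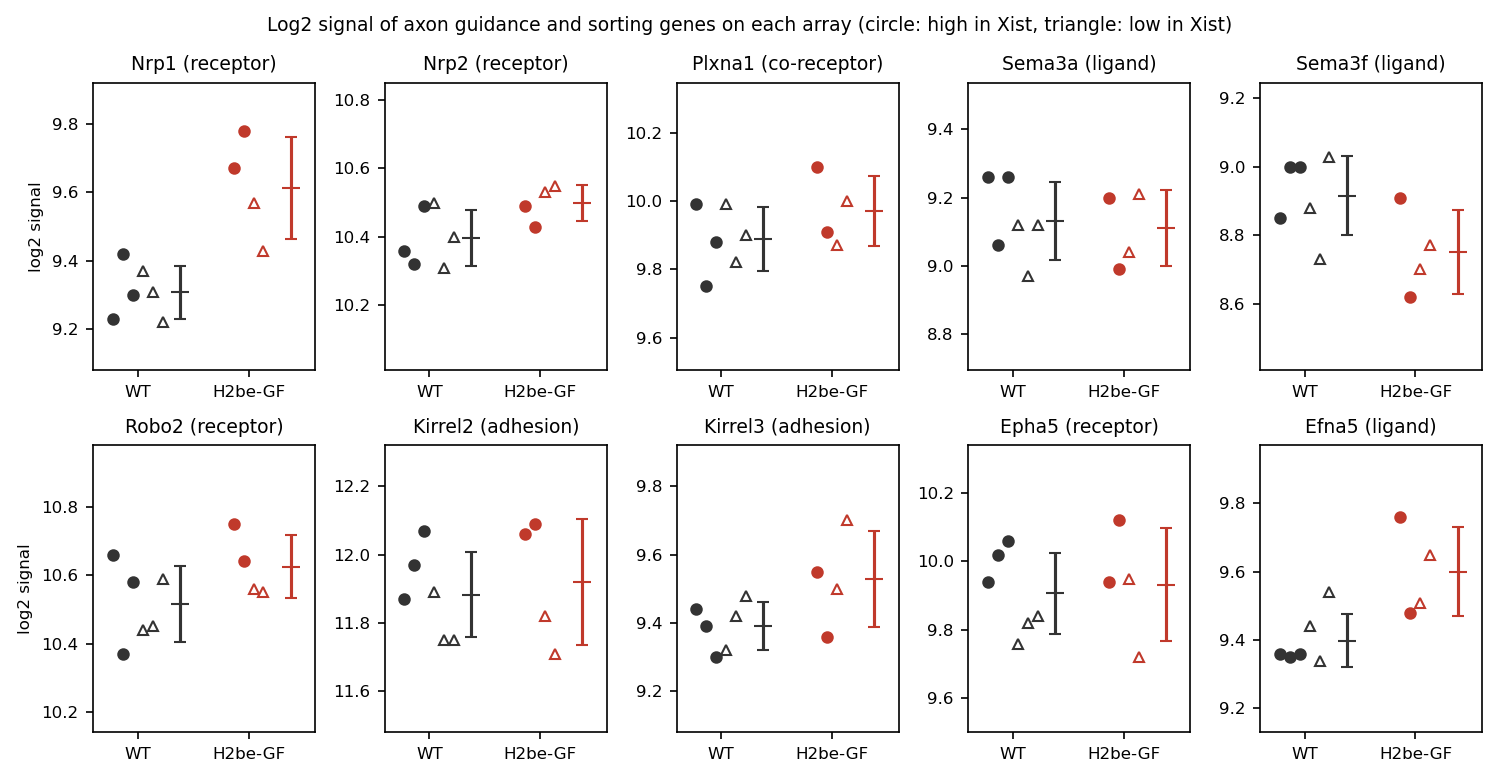
Log2 signal (vertical axes, each spanning the same range) of each of the 10 genes on the 6 WT arrays in dark and the 4 H2be-GF arrays in red, with filled circles for arrays high in Xist, open triangles for arrays low in Xist, and the mean and SD beside the points. The Nrp1 values of the H2be-GF arrays, 9.43 to 9.78, lie above those of the WT arrays, and the genotypes overlap for each of the other genes.

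The secreted ligands of these receptors had negative estimates in the fit to all arrays. Sema3a, the repellent ligand of Nrp1, read 9.20, 8.99, 9.04 and 9.21 on the H2be-GF arrays and 8.97, 9.12 and 9.26 at the lowest, median and highest WT arrays, so that its H2be-GF values lay inside the WT range. Its log2 change was -0.02, with an interval of -0.19 to 0.15 and a limma adjusted p of 0.963, and it was positive without WT replicate 1 or 3 or H2be-GF replicate 2 or 3, reaching 0.019, and within the arrays low in Xist, at 0.054. Sema3f, the ligand of Nrp2, read 8.91, 8.62, 8.70 and 8.77 on the H2be-GF arrays, against 8.73, 8.94 and 9.03 at the lowest, median and highest WT arrays. All 4 Sema3f values of H2be-GF lay below the WT mean and 2 lay below every WT array. The change of Sema3f was -0.17, the most negative of the members, with an interval of -0.34 to 0.01 and a limma adjusted p of 0.623, and it stayed between -0.22 and -0.12 without each array in turn.

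Whether receptor and ligand, or the members of a pair, differed in their changes was tested for 5 pairs picked after their values were seen, with two-sided exact permutation tests over the 210 ways of assigning the genotypes, which cannot give a p below 0.00476. The log2 change of Nrp1 exceeded that of Sema3a by 0.32 (exact permutation p = 0.0286, adjusted over the pairs 0.135), with 4 of 4 H2be-GF arrays above the WT mean of the difference. Nrp1 exceeded Nrp2 by 0.20 (exact permutation p = 0.0667, adjusted 0.135) in 3 of 4 arrays, and Sema3a exceeded Sema3f by 0.15 (exact permutation p = 0.081, adjusted 0.135) in 4 of 4. No pair passed the adjustment.

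Robo2, the receptor for Slit repellents on these axons, read 10.75, 10.64, 10.56 and 10.55 on the H2be-GF arrays and 10.37, 10.51 and 10.66 at the lowest, median and highest WT arrays. Its H2be-GF values were all above the WT mean, and 1 was above all WT arrays. The Robo2 change of 0.11, or 0.069 without H2be-GF replicate 1, had an interval of -0.05 to 0.27 and a limma adjusted p of 0.719.

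Of the contact-dependent sorting molecules, Efna5, the membrane-anchored ligand of EphA receptors, had the second largest change of the 10. It read 9.76, 9.48, 9.51 and 9.65 on the H2be-GF arrays and 9.34, 9.36 and 9.54 at the lowest, median and highest WT arrays. Of the 6 WT arrays, 5 lay below every H2be-GF array, and WT replicate 6 lay within their range. The means were 9.60 ± 0.13 (SD, n = 4) and 9.40 ± 0.08 (SD, n = 6), with a log2 change of 0.20, SE 0.07, an interval of 0.04 to 0.36, an unadjusted limma p of 0.0186 and an adjusted p of 0.465. Epha5, a receptor of ephrin-A5, read 9.94, 10.12, 9.95 and 9.72 on the H2be-GF arrays against 9.76, 9.89 and 10.06 at the lowest, median and highest WT arrays. The H2be-GF values of Epha5 reached beyond the WT range on both sides, and its change of 0.03 had an interval of -0.17 to 0.22 and a limma adjusted p of 0.960. The changes of Epha5 and Efna5 differed by -0.17 (exact permutation p = 0.229, adjusted 0.286), with 1 of 4 H2be-GF arrays above the WT mean of the difference.

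The adhesion molecules Kirrel2 and Kirrel3 are sorting cues found on different axons. Kirrel2 read 12.06, 12.09, 11.82 and 11.71 on the H2be-GF arrays, against 11.75, 11.88 and 12.07 at the lowest, median and highest WT arrays. The H2be-GF values of Kirrel2 formed a high and a low pair that spanned the WT range, and the change of 0.04 had an interval of -0.17 to 0.24 and a limma adjusted p of 0.944. Kirrel3 read 9.55, 9.36, 9.50 and 9.70 on the H2be-GF arrays and 9.30, 9.41 and 9.48 at the lowest, median and highest WT arrays. For Kirrel3, 3 of the 4 H2be-GF arrays lay above every WT array and the other lay among the lower WT arrays. The change of Kirrel3 was 0.13, or 0.075 without H2be-GF replicate 4, with an interval of -0.03 to 0.29 and a limma adjusted p of 0.670. The changes of Kirrel2 and Kirrel3 differed by -0.10 (exact permutation p = 0.548, adjusted 0.548), with 2 of 4 H2be-GF arrays above the WT mean of the difference.

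**Figure D2:**
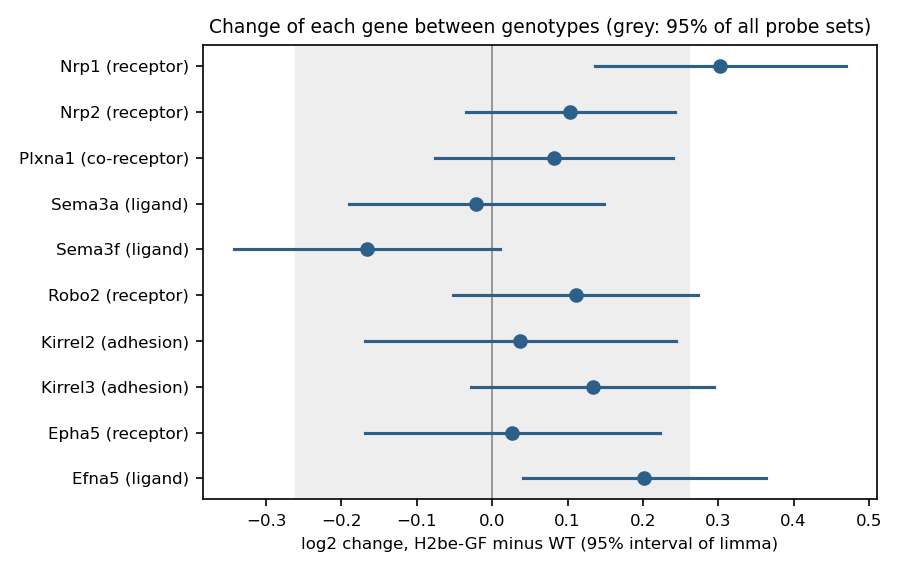
Log2 change (horizontal axis, H2be-GF minus WT) of each of the 10 genes (rows), with bars for the 95% interval of limma and a grey band that holds the changes of 95% of all probe sets, up to 0.26 in size. The intervals of Nrp1 and Efna5 lie above 0, and those of the other 8 genes include 0.

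Facts of the whole series bear on these values. The arrays correlated with each other at 0.969 to 0.988, and their medians ran from 7.74 to 7.91. Hist2h2be, the gene of H2BE, was lower on all 4 H2be-GF arrays (11.84 ± 0.07, SD, n = 4) than on any WT array (12.07 ± 0.05, SD, n = 6). Its adjusted p in limma was 0.297, or 0.00146 with the variance allowed to follow the signal level and outlying variances down-weighted. The study reports, from quantitative PCR that it does not show, a transgene level well above that of the endogenous gene. It is not known here whether the probes of Hist2h2be read the transgene, and the cause of the lower signal was not tested. The probe set therefore does not check the labels, and H2be-GF means the arrays so labelled. Omp was at 12.75 to 12.81 on H2be-GF arrays and at 12.83 to 12.96 on WT arrays. Per the study, only the coding sequence of Omp was replaced in the transgene, and it is not known here whether the probes of Omp read it. The mean level of 12 mature neuron markers was 11.76 to 11.80 in H2be-GF and 11.81 to 11.90 in WT, with 2 of the 12 positive, 3 apart with H2be-GF lower and 0 called, where 52.6% of all probe sets were positive and 1.6% were apart in that direction. All 12 of these markers were present, with the lowest averaging 10.69. The mean levels of the lists for immature neurons, supporting cells, ensheathing glia, endothelium, stroma and bone, macrophages and basal cells overlapped between genotypes, with changes from -0.01 to 0.08. The part of these levels in the members' changes was not tested.

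Beyond the 10 genes, 8 lists of semaphorins, plexins, Slits and Robos, ephrins and Ephs, netrins and their receptors, adhesion molecules, growth cone signalling and cyclic AMP signalling held 121 genes, of which 115 were measured. Of these 115, 0 were called by limma and 12 (10.4%) had an unadjusted p under 0.05, 7 higher and 5 lower, with 60 positive changes and a median of 0.01. The share sits near the 8.43% of all probe sets. The genotypes did not overlap for 2 genes higher in H2be-GF, Ncam2 and Sema6d, and for 3 lower, Omp, Alcam and Cnga2, beside 1.29% and 1.6% of all probe sets. Alcam and Cnga2 are named for this count after their values were seen.

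Ncam2, a homophilic adhesion molecule of olfactory axons whose level differs between zones of the epithelium, had the smallest p of these genes. It read 10.82, 10.79, 10.71 and 10.73 on the H2be-GF arrays and 10.48, 10.50 and 10.53 at the lowest, median and highest WT arrays. The gap between genotypes was wider than the spread within either. Its change was 0.26 with SE 0.05 and an interval of 0.15 to 0.38, and the limma adjusted p was 0.147, or 0.00431 with the trended robust variance, which called Ncam2 and no other gene of the 8 lists.

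The gene of each other list with the smallest p differed as follows. Among semaphorins, of which 13 of 18 had a positive change, Sema6d, a transmembrane ligand, was at 8.10 to 8.31 in H2be-GF and 7.79 to 8.08 in WT, a change of 0.27 with a limma adjusted p of 0.410. Among plexins, 4 of 8 had a positive change, and Plxnc1, the receptor of Sema7A, changed by -0.40 (limma adjusted p = 0.379) with overlapping genotypes. Slit3, a Robo ligand, differed by 0.18 (limma adjusted p = 0.571). Efnb1, a ligand of EphB receptors, differed by -0.24 (limma adjusted p = 0.399), where 7 of 19 genes of its list had a positive change. The netrin receptor gene Unc5b differed by -0.14 (limma adjusted p = 0.632), and Crmp1, which relays semaphorin signals in the growth cone, by 0.12 (limma adjusted p = 0.667). In the cyclic AMP list 4 of 13 genes were positive, and 7 of the 13 are also in the list of mature neuron markers. Its smallest p belonged to Cnga4, a subunit of the olfactory transduction channel, at -0.13 (limma adjusted p = 0.587), while Adcy3, the adenylyl cyclase of these neurons, differed by -0.10 (limma adjusted p = 0.698).

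**Figure D3:**
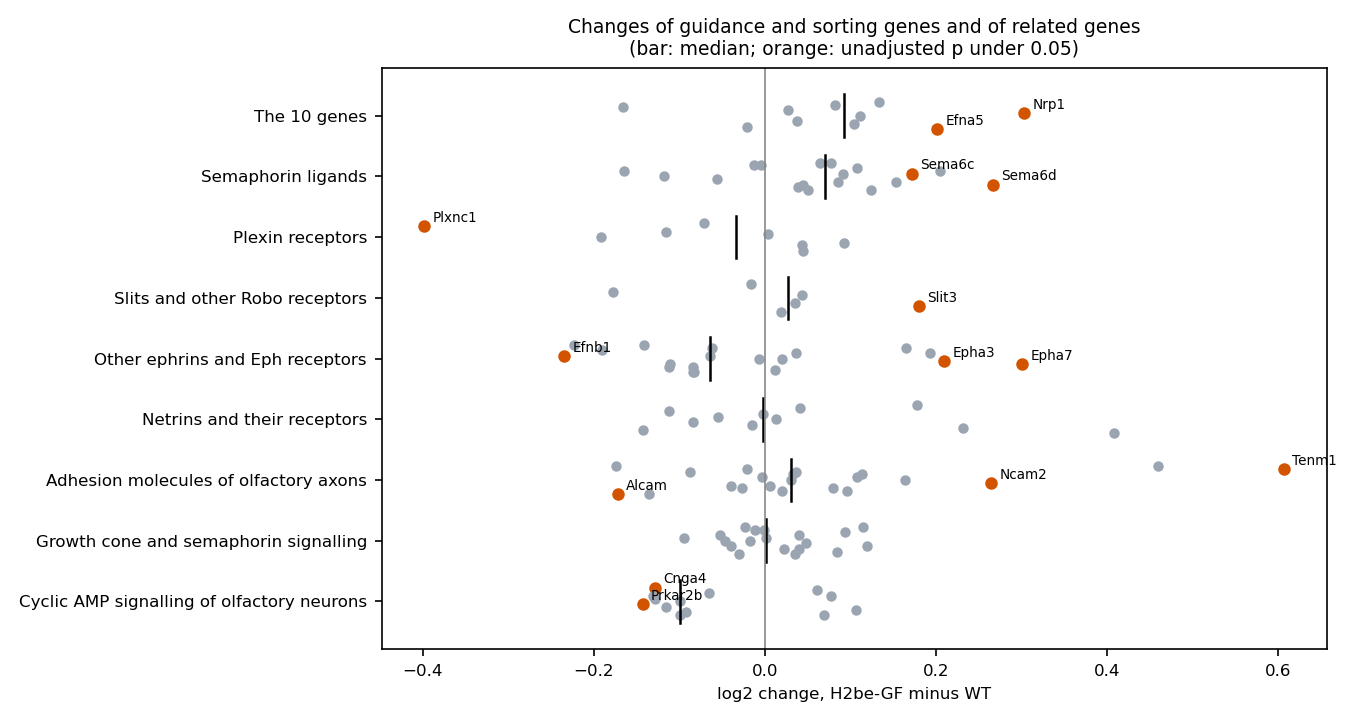
Log2 change (horizontal axis, H2be-GF minus WT) of the 10 genes and of the measured genes of each of the 8 lists (rows), 1 point a gene, with a bar at the median. Genes with an unadjusted p under 0.05 are orange and named, a choice made after their values were seen. The median of the 10 genes is 0.09, and the cyclic AMP list has the most negative median, -0.10.

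The arrays fell into 2 sets by Xist, the noncoding RNA of the inactive X, with 3 WT and 2 H2be-GF arrays high (11.69 to 11.92) and 3 WT and 2 H2be-GF arrays low (0 to 4.61). Nrp1 was higher in H2be-GF in both sets, by 0.41 among the arrays high in Xist and by 0.20 among those low in Xist. Efna5 differed by 0.27 and 0.13, and Sema3f by -0.19 and -0.15. Within the sets limma called 0 members, with 1 and 0 at an unadjusted p under 0.05. In a fit with an interaction of genotype and set, limma called 0 members and 0 of all probe sets, with 678 probe sets and 0 members at an unadjusted p under 0.05, the smallest member p being 0.184, for Nrp1.

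Kirrel2 and Epha5 also differed between these sets within a genotype, given here as a description of genes picked after their values were seen. The share of all probe sets that differ between the sets was not computed. In both genotypes the arrays high in Xist carry the lower replicate numbers, so set and replicate order cannot be told apart. Among WT arrays, Kirrel2 was at 11.87 to 12.07 where Xist was high and at 11.75 to 11.89 where it was low, and among H2be-GF arrays at 12.06 to 12.09 and 11.71 to 11.82. The H2be-GF pairs of Kirrel2 were separated, and the WT sets overlapped slightly. Epha5 was at 9.94 to 10.06 and 9.76 to 9.84 among WT arrays, which did not overlap, and at 9.94 to 10.12 and 9.72 to 9.95 among H2be-GF arrays, which did. The difference between sets was 0.20 in both genotypes for Epha5, and 0.17 in WT and 0.31 in H2be-GF for Kirrel2.

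How the 10 genes varied together was examined, after the data were seen, by correlating their deviations from the genotype mean over the 10 arrays. Of 45 pairs, 7 had an unadjusted exact permutation p under 0.05, and 0 passed Benjamini-Hochberg adjustment, the smallest adjusted p being 0.315 for Pearson's r and 0.326 for Spearman's rho. The share among pairs of other probe sets was not computed, so the count is not a trait shown for these genes. Kirrel2 and Epha5 had r = 0.81 (exact permutation p = 0.00978) and rho = 0.77 (exact permutation p = 0.0221), r = 0.66 without the 2 arrays farthest from the median of Kirrel2, and r = 0.46 with deviations taken within the Xist sets. Nrp1 and Kirrel2 had r = 0.76 (exact permutation p = 0.0339) and rho = 0.66 (exact permutation p = 0.0743). Without the 2 arrays farthest from the median of Nrp1, their r was 0.54, and within the Xist sets it was 0.62. For the remaining pair of these genes, Nrp1 and Epha5, r was 0.63 (exact permutation p = 0.0939) and rho 0.45 (exact permutation p = 0.252). Without the 2 arrays farthest from the median of Nrp1, their r was 0.12, and within the Xist sets it was 0.55.

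Correlations of Kirrel3 with these genes were negative, and none passed adjustment. Kirrel3 and Kirrel2 had r = -0.76 (exact permutation p = 0.0248) and rho = -0.79 (exact permutation p = 0.0159). Their r was -0.58 without the 2 arrays farthest from the median of Kirrel2 and -0.81 within the Xist sets. Kirrel3 and Nrp1 had r = -0.81 (exact permutation p = 0.0277) and rho = -0.75 (exact permutation p = 0.0324). Their r was -0.44 without the 2 arrays farthest from the median of Nrp1 and -0.74 within the Xist sets. Kirrel3 and Epha5 had r = -0.71 (exact permutation p = 0.0490) and rho = -0.62 (exact permutation p = 0.0868). Their r was -0.25 without the 2 arrays farthest from the median of Kirrel3, on which the relation over all arrays rests. Within the Xist sets it was -0.74. On H2be-GF replicate 2, Nrp1, Kirrel2 and Epha5 all lay above their genotype mean, by 0.17, 0.17 and 0.19, and Kirrel3 lay at -0.17 from it. H2be-GF replicate 4 held the opposite pattern, with deviations of -0.18, -0.21 and -0.22 and 0.17 for Kirrel3. Efna5 and Sema3a had weaker correlations with Kirrel2, of r = -0.15 (exact permutation p = 0.709) and 0.14 (exact permutation p = 0.699). Sema3a and Epha5 had r = -0.10 (exact permutation p = 0.789), and Nrp1 and Efna5 had r = -0.30 (exact permutation p = 0.537).

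The other pairs with an unadjusted p under 0.05 were positive. Sema3f and Efna5 had r = 0.70 (exact permutation p = 0.0431) and rho = 0.79 (exact permutation p = 0.00949). Their r was 0.59 without the 2 arrays farthest from the median of Sema3f and 0.88 within the Xist sets. Plxna1 and Sema3a had r = 0.70 (exact permutation p = 0.0432) and rho = 0.71 (exact permutation p = 0.0362). Their r was 0.67 without the 2 arrays farthest from the median of Plxna1 and 0.93 within the Xist sets. All 7 pairs kept their sign within the Xist sets, but they were picked on these same arrays, so this is not independent support. The receptor and ligand pairs had no such p. Nrp1 and Sema3a had r = -0.48 and rho = -0.53 (exact permutation p of 0.182 and 0.132). Their r was -0.19 without the 2 arrays farthest from the median of Nrp1 and -0.74 within the Xist sets. Epha5 and Efna5 had r = -0.50 and rho = -0.52 (exact permutation p of 0.216 and 0.210). Their r was -0.77 without the 2 arrays farthest from the median of Efna5 and -0.64 within the Xist sets.

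**Figure D4:**
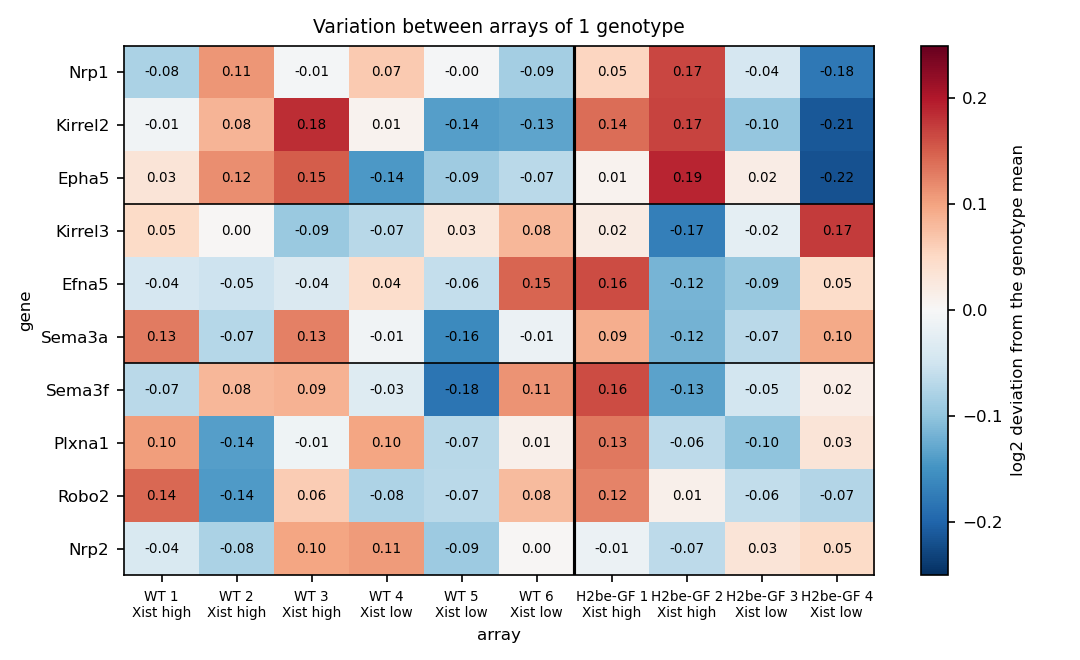
Deviation of each of the 10 genes (rows) from its genotype mean, in log2 units (colour and printed value), on each array (columns, grouped by genotype and Xist set). Nrp1, Kirrel2 and Epha5 are all high on H2be-GF replicate 2 and low on H2be-GF replicate 4, and Kirrel3 is low and high there.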

How the data were processed

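RNA from whole MOE was hybridised by the authors to Affymetrix whole-transcript mouse gene arrays, 6 WT and 4 H2be-GF. The deposited values are log2 signals that the authors made per the study's methods with Affymetrix Expression Console (IterPLIER summarisation and sketch-quantile normalisation). They were used as deposited, without further normalisation, so that shifts common to all genes are removed and changes are relative. The precision is limited by the number of arrays.

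Gene symbols came from the platform annotation and were updated from RefSeq: of 35556 probe sets, 21789 had 1 symbol, 1621 several and 12146 none. Those with a symbol and a mean above 5 (23194) entered a two-sided limma fit (version 3.58.1, R 4.3.3) of H2be-GF against WT, with no covariate and with Benjamini-Hochberg adjustment at a threshold of 0.05. Intervals are 95% intervals of this fit. The fit was tried on simulated arrays with independent noise, which lack variation shared between probe sets, so the trial does not vouch for the intervals here. P-values measure the spread between arrays. The members and the lists were chosen with earlier results of these data known. Also named were the gene with the smallest p of each list, or any called, Omp, Hist2h2be, Adcy3 and Ncam2, and the 3 probe sets most like each member. Arrays were split at the midpoint of Xist. Correlations were tested with exact permutation within genotype (17280 reorderings), with numpy 2.4.6 and scipy 1.17.1. Alternatives were other scalings, a constant of 16 added before log2, other variance models, filters, the Xist set as a covariate, and leaving out each array.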

Additional observations from a re-analysis of the deposited data

Results flagged for a closer look

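Of 42 groups of 4 or 6 arrays checked, 1 held an array far from the others: Unc5b, a netrin receptor gene, read 9.046 on WT replicate 4, where the nearest of the other 5 WT arrays read 9.159. The gap was 0.636 of the range of the 6 arrays. Chance marks about 1 in 20 groups in this way. The Unc5b change between genotypes was -0.14 and was not called by limma. No member of the 10 was marked.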

How the results depend on the processing

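No member was called by limma in 20 of 21 alternatives, and the trended robust variance called 1 of the 10, Nrp1, and 1 of the other guidance genes, Ncam2. Over the whole array limma called 20 probe sets, but 114 with the trended robust variance, 36 with a filter at a mean of 7, 0 within the arrays high in Xist and 0 within those low in Xist (1113 and 1012 at an unadjusted p under 0.05), and 11 to 19 when 1 array was left out, with 11 without H2be-GF replicate 1 and 13 without H2be-GF replicate 3. With the replicate block, a paired fit in which WT replicates 5 and 6 have no partner, limma called 5. Same-numbered arrays correlated at 0.530, 0.219, -0.423 and 0.261 in their deviations. With no differently numbered arrays set beside them, these values do not settle whether the numbers pair the samples. The arrays numbered 3, which the block joins, differed in Xist set, at 11.81 in WT and 4.61 in H2be-GF. The block changed no call of a member. Of 210 values of members under alternatives, 197 kept direction and call and 12 turned direction, all in genes with changes of 0.04 or less in size. Kirrel2 was at -0.03 with the replicate block and at -0.03 within the arrays low in Xist, and between -0.019 and 0.108 without 1 array. Sema3a was at 0.054 within the arrays low in Xist and between -0.053 and 0.019 without 1 array. Epha5 was at -0.012 with the replicate block and between -0.036 and 0.100 without 1 array. The cause of these shifts was not tested. With 4 and 6 arrays, the 95% intervals of the 10 changes, which are not adjusted, reached 0.139 to 0.207 to either side of the estimate. Smaller changes could not be told from 0. Larger ones could also go uncalled after adjustment, as did the 0.30 of Nrp1 (limma adjusted p = 0.296).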

Other observations

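The probe sets most like each member were looked for among 17065 with 1 symbol and a mean above 7, by Pearson's r of deviations from the genotype mean over the 10 arrays. For Nrp1 these were 4932438A13Rik (r = 0.96), Fam107b (0.95) and Rbm17 (0.95), for Kirrel2 they were Pprc1 (0.97), Heg1 (0.97) and Scn3a (0.96), and for Epha5 they were Etv4 (0.94), 2410002F23Rik (0.92) and Itpkb (0.91). For Kirrel3 they were Tectb (0.95), Pllp (0.94) and Gins2 (0.90), and for Efna5 they were Dus1l (0.94), Hvcn1 (0.93) and Inpp5b (0.92). With so many candidates over so few arrays, high values are common. When deviations were taken from the mean of genotype and Xist set, 7 of the 30 genes most like the 10 members were found again.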
